A study of Saccharomyces cerevisiae with 39 samples.

Results

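Abf1 binds promoters of budding yeast, where it helps to keep the DNA free of nucleosomes, and the cells cannot grow without it. Promoters that depend on it lose output when it leaves the nucleus. Genes under such promoters take part in many housekeeping processes, among them ribosome assembly, mitochondrial biogenesis and protein folding. The question here was what changed in RNA synthesis between 30 and 60 min of Abf1 depletion, after the first fall at these promoters had largely taken place. Labelled RNA was compared in 6 libraries, 3 replicates after 30 min and 3 after 60 min, out of 39 libraries in the series. The libraries were chosen by their time labels. The main fit had no term for the replicate number, and same-numbered replicates were treated as pairs in additional fits.

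Newly made RNA was marked with 5 mM 4-thiouracil (4tU) for 6 min, pulled down and sequenced. All 6 libraries came from BY4742 cells that carried Abf1 fused to FRB, GFP and a V5 epitope tag, a rapamycin-resistant tor1-1 allele, no FPR1, and the ribosomal anchor protein RPL13A fused to FKBP12. In this anchor-away strain 7.5 µM rapamycin joins Abf1 to the anchor, which takes it out of the nucleus. The time after rapamycin, 30 or 60 min, is the difference between the groups. Cells at 0 min received solvent only, and the untagged parental strain (WT), with the same tor1-1, FPR1 and anchor alleles, was measured with solvent and after 90 min of rapamycin. WT was measured at no time in between, and no RNA was added in a known amount, so every value is a share of the labelled RNA in its own library.

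The 6 libraries held between 4388400 and 6856586 counts. A count of 0 in one of them allows up to 3 counts, or 0.438 to 0.684 CPM, the count scaled to library size. FPR1, deleted in both strains, had 0 counts in all 39 libraries. ABF1 itself, whose protein is relocated and whose gene is intact, had 971, 737 and 827 CPM at 30 min in replicates 1 to 3 and 1030, 792 and 930 CPM at 60 min. The groups overlapped, and the log2 fold change was 0.12 (SE 0.12, adjusted p = 0.939, edgeR quasi-likelihood F-test). Same-numbered replicates deviated from their group means together. The biological coefficient of variation of the 6 libraries was 18.6% without and 6.03% with the replicate number in the model.

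Few genes changed from 30 to 60 min. With an adjusted p under 0.01 and a fold over 1.5, 5 of 5722 genes tested (0.0874%) fell and 4 (0.0699%) rose. The genes that fell were INA1, TOM70, FAA4, ITR1 and CDC20, and those that rose were DUR3, NCA3, SER3 and YBR284W. With a term for the replicate number (the replicate block), 13 genes (0.227%) fell and 5 (0.0874%) rose, and these included all 9 of the first list. The paired fit of the 6 libraries alone called 30 lower (0.524%) and 19 higher (0.332%), all 9 included. An unadjusted p under 0.05 was reached by 251 genes with a lower value (4.39%) and 250 with a higher one (4.37%). The 3 values of each group did not overlap for 295 lower genes (5.16%) and 363 higher genes (6.34%). The log2 change of 95.6% of the genes lay within 0.5 of 0.

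**Figure D1:**
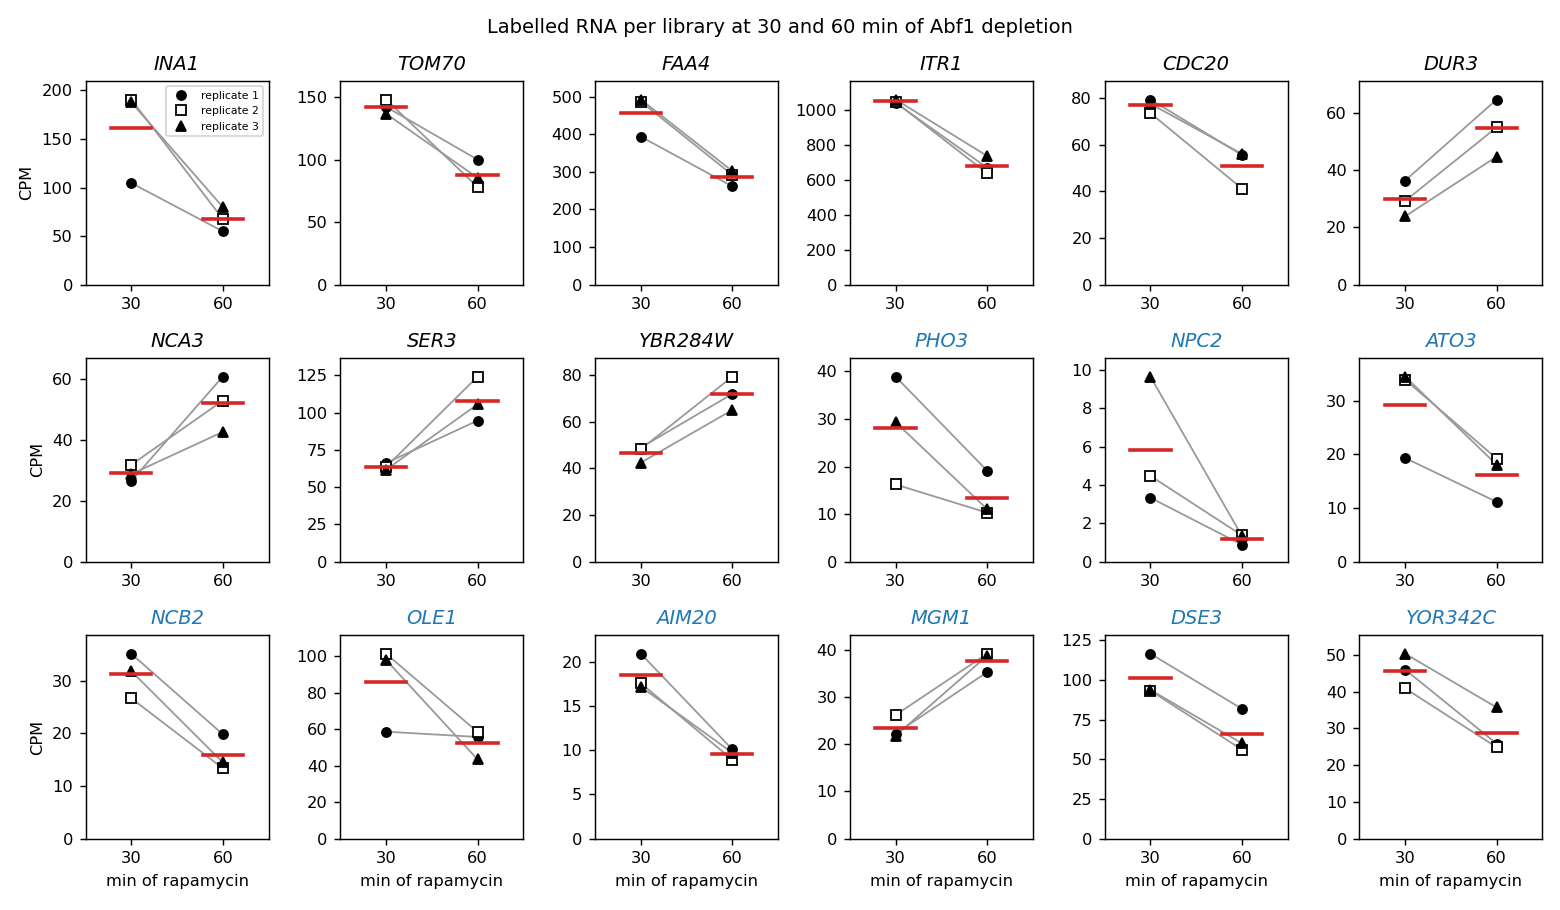
CPM of labelled RNA (vertical axes, from 0) at 30 and 60 min for the 18 genes called with the replicate block, one point per library, grey lines joining same-numbered replicates and red bars marking means of 3. Genes with black titles were also called without the block, and those with blue titles only with it. In every panel all 3 lines run the same way, and only in PHO3 do the 2 groups overlap.

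INA1, FAA4 and ITR1 fell from 30 to 60 min and had not been called lower at 20 min against 0 min. INA1 (chrXII:951156-953183) had 105, 191 and 188 CPM at 30 min and 54.9, 67.6 and 79.9 CPM at 60 min. Replicate 1 was the lowest at both times, and every 60 min value lay under every 30 min value. Its log2 fold change was -1.26 (SE 0.20, adjusted p = 0.000973). From 0 to 30 min replicate 1 of INA1 went from 153 to 105 CPM, and replicates 2 and 3 from 145 to 191 and from 195 to 188 CPM. Mean INA1 output was 164 CPM (SD 26.8, n = 3) at 0 min and 161 CPM (SD 48.8) at 30 min, and it reached 37.4 CPM (SD 9.40) at 90 min.

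FAA4 (chrXIII:759807-761891) encodes an acyl-CoA synthetase that activates long-chain fatty acids. It had 394, 487 and 492 CPM at 30 min and 261, 292 and 302 CPM at 60 min, without overlap. At 0 min it had 467, 465 and 473 CPM, so that replicate 1 was lower at 30 min than before rapamycin. FAA4 changed by -0.68 on the log2 scale (SE 0.09, adjusted p = 5.27e-05). ITR1 (chrIV:1443713-1445467), the main transporter for myo-inositol, a lipid precursor, had 1039, 1043 and 1058 CPM at 30 min and 668, 636 and 735 CPM at 60 min. Its 30 min replicates were almost equal, and the log2 fold change was -0.62 (SE 0.09, adjusted p = 0.000354). Mean ITR1 output was 960 CPM (SD 103) at 0 min, 1182 CPM (SD 81.7) at 20 min, 1047 CPM (SD 9.88) at 30 min and 366 CPM (SD 9.33) at 90 min. Each ITR1 replicate was already lower at 30 than at 20 min.

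CDC20 (chrVII:289809-291641), an activator of the ubiquitin ligase that drives exit from metaphase, had 79.3, 73.5 and 77.5 CPM at 30 min and 55.6, 41.2 and 56.0 CPM at 60 min. The groups lay apart, with a log2 fold change of -0.59 (SE 0.11, adjusted p = 0.0066).

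TOM70 and NPC2 were different, since both were already falling before 30 min. Their promoters are shown here because they hold the Abf1 motif as published for yeast, in capitals. Each run covers 250 bases before to 50 bases after the gene's start in the RefSeq annotation of assembly R64, which is sacCer3, 5′ to 3′ on the strand of the gene.
TOM70, minus strand, chrXIV:400488-400787: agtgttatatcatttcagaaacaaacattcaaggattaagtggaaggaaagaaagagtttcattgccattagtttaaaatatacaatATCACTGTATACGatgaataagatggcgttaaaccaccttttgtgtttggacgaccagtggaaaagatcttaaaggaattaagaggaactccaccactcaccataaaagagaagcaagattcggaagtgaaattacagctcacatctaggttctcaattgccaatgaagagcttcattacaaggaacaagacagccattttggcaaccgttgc
NPC2, plus strand, chrIV:370990-371289: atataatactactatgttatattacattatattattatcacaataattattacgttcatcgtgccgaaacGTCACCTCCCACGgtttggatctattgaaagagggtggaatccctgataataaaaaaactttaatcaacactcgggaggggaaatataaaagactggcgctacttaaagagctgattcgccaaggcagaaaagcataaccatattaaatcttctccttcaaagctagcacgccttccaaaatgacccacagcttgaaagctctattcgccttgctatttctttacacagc

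TOM70 (chrXIV:398684-400537) encodes a receptor of the mitochondrial outer membrane for imported proteins. It had 142, 148 and 137 CPM at 30 min and 100, 78.1 and 85.5 CPM at 60 min, without overlap, and the log2 fold change was -0.70 (SE 0.10, adjusted p = 0.000134). Mean TOM70 output was 478 CPM (SD 15.3) before rapamycin and 231 CPM after 20 min. It was 142 CPM after 30 min, 87.9 CPM after 60 min and 91.0 CPM (SD 4.70) after 90 min. TOM70 was the 1 gene that had been called lower at 20 min and was called again, without the block, from 30 to 60 min. NPC2 (chrIV:371240-371761), whose protein binds sterols in the vacuole, had 3.33, 4.47 and 9.64 CPM at 30 min, from 15, 27 and 50 counts, and 0.885, 1.37 and 1.34 CPM at 60 min, from 5, 8 and 9 counts. The groups lay apart, but replicate 3 at 30 min stood above the others. The log2 fold change of NPC2 was -2.25 (SE 0.48, adjusted p = 0.0194), or -2.24 with the replicate block (adjusted p = 0.00309), and without 30 min replicate 3 it was -1.69.

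Of the 4 genes that rose, 3 had not been called at 20 min against 0 min. DUR3 (chrVIII:72037-74244), a plasma membrane transporter of urea and polyamines, had 36.4, 29.3 and 23.9 CPM at 30 min and 64.8, 55.1 and 44.8 CPM at 60 min. In both groups replicate 1 was the highest and replicate 3 the lowest, and the groups did not overlap. The log2 fold change was 0.88 (SE 0.15, adjusted p = 0.00197), and the mean continued to 76.5 CPM (SD 8.51) at 90 min from 22.8 CPM (SD 1.04) at 0 min.

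NCA3 (chrX:193860-194873) encodes a member of the SUN family of cell wall proteins. It had 26.4, 31.8 and 28.7 CPM at 30 min and 60.7, 52.9 and 42.6 CPM at 60 min. No value was shared between the times, and the log2 fold change was 0.84 (SE 0.16, adjusted p = 0.00717). Mean NCA3 output was 20.6 CPM (SD 2.48) at 0 min and 151 CPM (SD 26.5) at 90 min, and the log2 fold change from 50 to 90 min was 1.82 (SE 0.16, adjusted p = 6.14e-09).

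SER3 (chrV:322686-324095), an enzyme of the first step of serine synthesis, had 66.2, 63.6 and 61.7 CPM at 30 min and 94.7, 124 and 106 CPM at 60 min. All 3 values at 60 min were above all 3 at 30 min, with a log2 fold change of 0.76 (SE 0.13, adjusted p = 0.00201). The noncoding RNA SRG1, whose transcription across the SER3 promoter is known to repress SER3, overlaps SER3 by 77 bases in the R64 annotation. The bounds of the counted features can differ, and some reads of both genes may not be told apart. SRG1 had 135, 132 and 142 CPM at 30 min and 120, 171 and 146 CPM at 60 min, with a log2 fold change of 0.09 (SE 0.18, adjusted p = 0.969). SRG1 was looked at after the values of SER3 were seen.

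YBR284W (chrII:771239-773632), a gene of unknown function, was the exception among the 4, since it had been called higher at 20 min already. It had 48.9, 48.2 and 42.4 CPM at 30 min and 71.9, 79.3 and 65.0 CPM at 60 min, with a log2 fold change of 0.63 (SE 0.12, adjusted p = 0.00781). Its mean at 0 min was 21.8 CPM (SD 2.50).

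**Figure D2:**
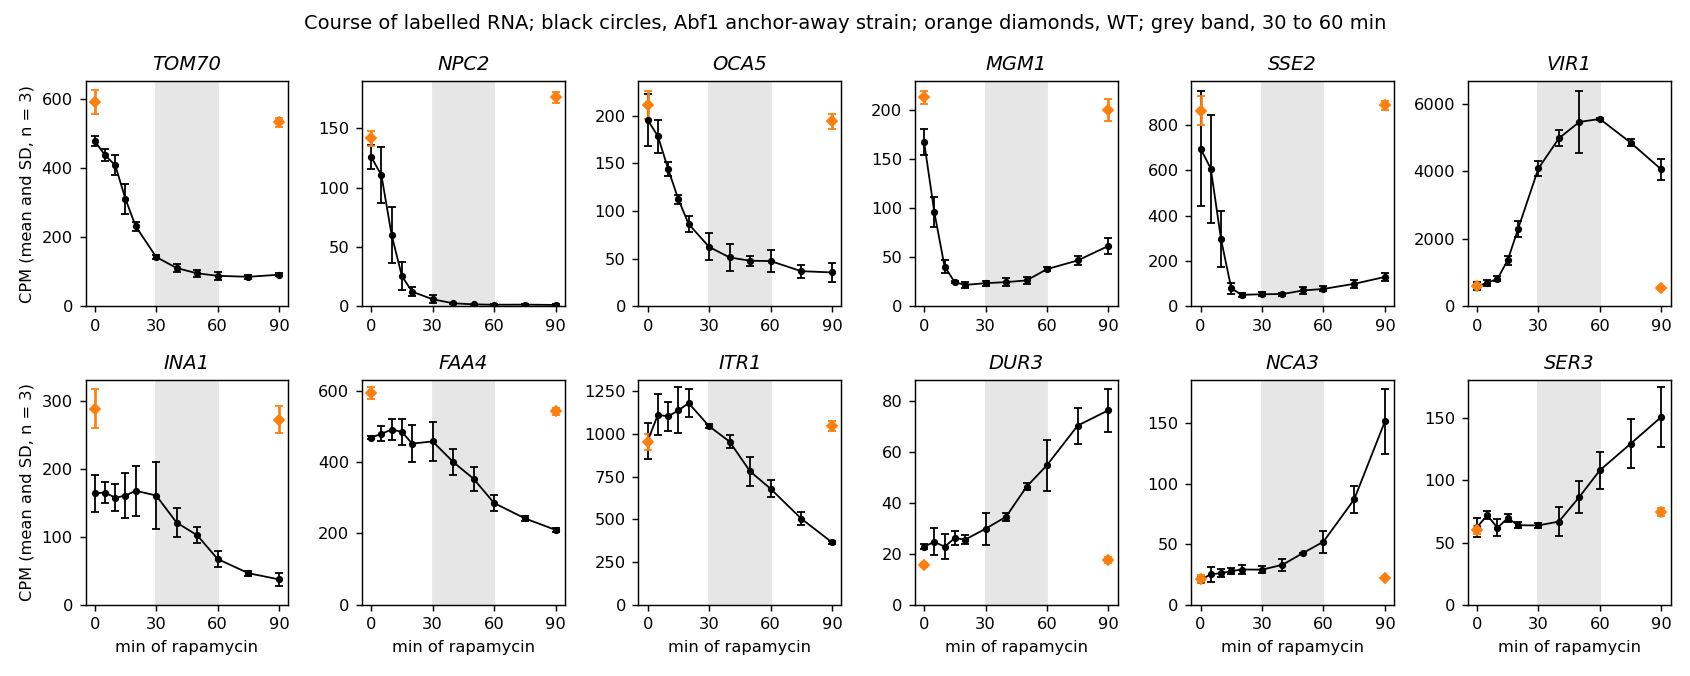
Mean CPM (vertical axes, from 0) with SD of 3 replicates over 11 time points of rapamycin in min (horizontal axes) for 12 genes, black circles for the Abf1 strain and orange diamonds for WT, the grey band marking 30 to 60 min. TOM70, NPC2 and OCA5 lost most of their output before the band, MGM1 and SSE2 had means of 37.7 and 76.0 CPM at 60 min and of 61.3 and 129 CPM at 90 min, and INA1, FAA4 and ITR1 fell within the band while DUR3, NCA3 and SER3 rose.

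The block added 9 genes, named after their values were seen. MGM1 (chrXV:738924-741569), a GTPase needed for fusion of mitochondrial inner membranes, was the only riser among them. It had 22.2, 26.2 and 21.8 CPM at 30 min and 35.2, 39.1 and 38.7 CPM at 60 min, without overlap. MGM1 changed by 0.68 on the log2 scale with the block (adjusted p = 0.00634) and 0.68 without it (adjusted p = 0.0117). The MGM1 mean had been 167 CPM (SD 12.9) before rapamycin, 21.7 CPM (SD 2.78) by 20 min, and was 61.3 CPM (SD 8.01) by 90 min.

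The others fell. OLE1, the desaturase that makes unsaturated fatty acids, had 58.7, 101 and 98.0 CPM at 30 min and 55.8, 58.5 and 43.5 CPM at 60 min, and most of its fall lay in replicates 2 and 3. Its log2 fold change was -0.71 (adjusted p = 0.0504, with the block 0.00927). OLE1 is the 1 block call that the paired fit of the 6 libraries did not make (adjusted p = 0.185). DSE3, a gene expressed in daughter cells, had 116, 93.2 and 93.7 CPM at 30 min and 81.8, 56.1 and 60.1 CPM at 60 min, a log2 fold change of -0.62 (adjusted p = 0.0395, with the block 5.22e-05). NCB2, a subunit of the NC2 repressor of RNA polymerase II transcription, had 35.1, 26.7 and 31.8 CPM at 30 min and 19.8, 13.4 and 14.5 CPM at 60 min. Its log2 fold change was -0.97 (adjusted p = 0.0395, with the block 0.00298).

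The acid phosphatase gene PHO3 (-1.05), the ammonium transporter gene ATO3 (-0.86), AIM20 (-0.95) and YOR342C (-0.66) completed the list of log2 fold changes without the block. PHO3 overlapped between the groups, with 38.9, 16.2 and 29.3 CPM against 19.1, 10.3 and 11.1 CPM. DESeq2 called 6 of these 9 genes and all 9 of those called without the block. Over the alternatives run, the adjusted p of the 9 block genes lay between 5.22e-05 and 0.99997, and that of the 9 called without the block between 2.01e-12 and 0.847.

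How far the 9 calls rested on single libraries was measured by leaving out each of the 6 in turn, in fits without a replicate term. TOM70 and FAA4 were called in all 6 fits, and all 9 genes kept their sign in each. ITR1 was lost only without 60 min replicate 2, with an adjusted p of 0.0101. SER3 was called in 3 of 6 fits, INA1 and DUR3 in 2, and CDC20, NCA3 and YBR284W in 1, that without 60 min replicate 3. Without 30 min replicate 2, 3 genes were called lower and 0 higher, and without 60 min replicate 2 these were 2 and 0. INA1 then had log2 fold changes of -1.12 (adjusted p = 0.0196) and -1.26 (adjusted p = 0.0101). Without 30 min replicate 3 the adjusted p was 0.0194 for INA1, 0.0349 for SER3 and 0.0419 for DUR3, and without 60 min replicate 1 it was 0.0135, 0.00246 and 0.0303.

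Few genes were shared by the later and the earlier calls, and the later calls were few, 9 without the block and 18 with it. At 20 min against 0 min, 495 genes were called lower (8.65%) and 36 higher (0.629%), and these libraries are not part of the 60 against 30 min comparison. Of the 495 early lower genes, 1 was called lower again from 30 to 60 min and 0 were called higher, where 0.0874% and 0.0699% of all genes were. With the block 2 of the 495 fell (TOM70 and NPC2) and 1 rose (MGM1), where 0.227% and 0.0874% of all genes did. Their median log2 change was -0.06, against -0.01 for all genes tested, and 302 of the 495 lay below 0, as did 3014 of all 5722. By the unadjusted p under 0.05, 55 of them were lower (11.1%, against 4.39% of all genes) and 27 higher (5.45%, against 4.37%). Within replicates 1 to 3 their median was -0.05, -0.00 and -0.09. Of the 36 early higher genes, 1 was called higher again (YBR284W), where 0.0699% of all genes were, and their median was 0.06.

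**Figure D3:**
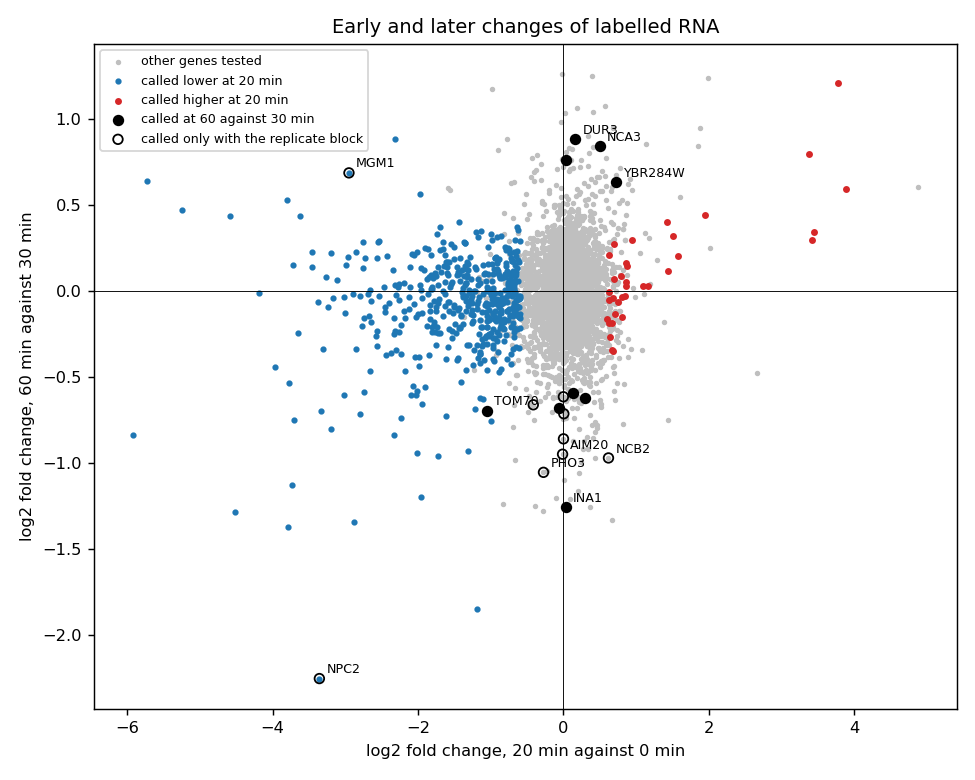
Log2 fold change at 60 against 30 min (vertical) over that at 20 against 0 min (horizontal) for 5722 genes, blue for the 495 genes called lower and red for the 36 called higher at 20 min. Filled circles mark the 9 genes called at 60 against 30 min and open circles the 9 added by the block, most of which lie near 0 on the horizontal axis.

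The fall of the early lower genes was also set against its own course. An exponential decay with a plateau was fitted for each gene to the 27 libraries of the other 9 time points of the Abf1 strain, and its value at 60 over 30 min was compared with the measured one. The fit was kept for 492 of the 495 genes, with a median rate of 0.104 per min. Kept fits had an R2 of at least 0.5, a rate inside the range searched and a defined ratio. The median predicted log2 ratio was -0.14 and the median measured one was -0.10, and the measured ratio lay above the predicted one for 334 genes. For the 156 genes with a predicted log2 ratio under -0.25, the median was -0.49 predicted and -0.22 measured. These 156 were picked by their predicted ratio, a choice that can by itself make the measured median less negative than the predicted one. For the other 336 the measured median was -0.03, next to -0.05 for all genes on the same scale, in which counts were scaled to the median library total. TOM70 was predicted at -0.98 and measured at -0.73, OCA5 at -0.79 and -0.43, and NPC2 at -3.92 and -2.31. These ratios also hold a misfit of the curve at 30 min. TOM70 had 783 scaled counts at 30 min against 1016 predicted, and 472 at 60 min against 515 predicted. The measured 30 min level was also under the predicted one for OCA5, NPC2, SSE2, TFB1 and MGM1.

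**Figure D4:**
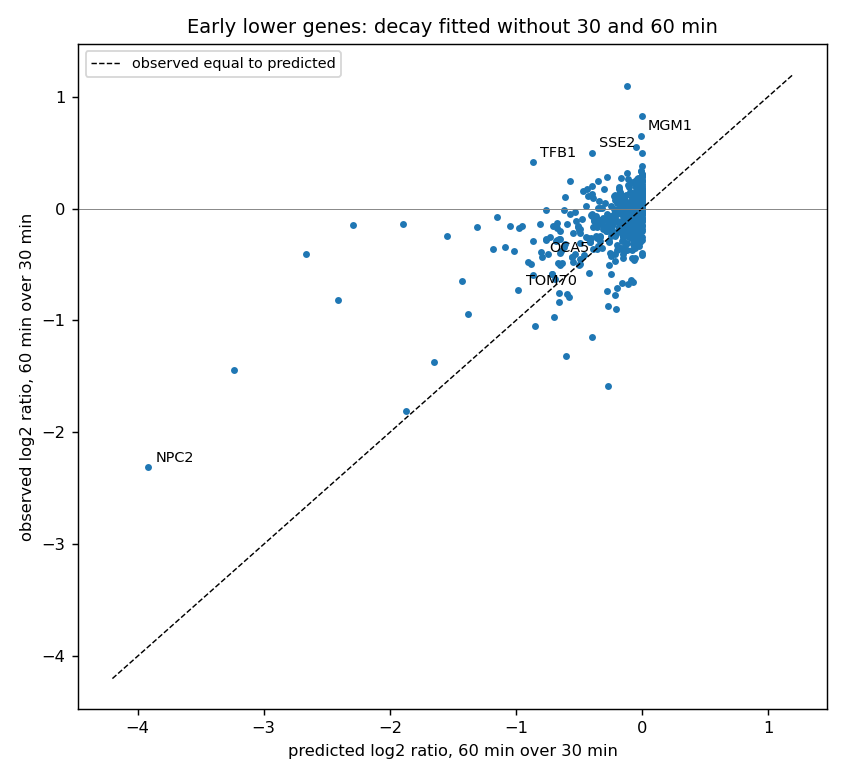
Measured log2 ratio of 60 over 30 min (vertical) over the ratio predicted by a decay fitted without those times (horizontal) for 492 early lower genes, with a dashed line where both are equal. Points above the line, 334 of them, had a higher ratio than predicted, among them SSE2, TFB1 and MGM1. A point can also lie there because the fitted level at 30 min was too high.

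Genes followed for their early response, chosen with earlier results of these data known, were not called in this interval. VIR1, needed for mRNA methylation and entry into meiosis, had 4334, 4027 and 3891 CPM at 30 min and 5504, 5551 and 5591 CPM at 60 min. These groups did not overlap, but the log2 fold change of 0.44 (SE 0.12, adjusted p = 0.0827, with the block 0.0392) did not pass the thresholds, and VIR1 fell back to 4051 CPM (SD 321) at 90 min. SSE2, a nucleotide exchange factor of Hsp70 chaperones, had 46.9, 62.1 and 48.6 CPM at 30 min and 84.5, 80.1 and 63.3 CPM at 60 min. Its log2 fold change was 0.53 (SE 0.30, adjusted p = 0.728), and the groups did not overlap.

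OCA5 had 76.2, 47.9 and 62.5 CPM at 30 min and 57.2, 34.0 and 50.8 CPM at 60 min, with overlap, and a log2 fold change of -0.39 (SE 0.19, adjusted p = 0.572). Each OCA5 replicate was lower at 60 than at 30 min, by 0.41, 0.49 and 0.30 on the log2 scale. TFB1, a subunit of the general transcription factor TFIIH, lay between 1.56 and 3.28 CPM at 30 min and between 2.12 and 4.29 CPM at 60 min, from 7 to 25 counts per library. Its log2 fold change was 0.44 (SE 0.38, adjusted p = 0.91). SRB2, a Mediator subunit, and NCP1, the reductase that serves P450 enzymes, are divergent neighbours, with log2 fold changes of 0.28 (SE 0.21, adjusted p = 0.865) and -0.11 (SE 0.09, adjusted p = 0.91). The values of both overlapped between the groups. In the paired fit the adjusted p was 0.000208 for VIR1, 0.00519 for SSE2 and 0.00834 for OCA5. Their log2 fold changes in that fit were 0.44, 0.52 and -0.40, so that only the fold threshold was missed. For TFB1, SRB2 and NCP1 the adjusted p in the paired fit was 0.387, 0.479 and 0.254.

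Of 38 gene lists, the 2 described first had the largest share of members at an unadjusted p under 0.05 in each direction. Counts of list members below or above 0 are to be read against all 5722 genes, of which 3014 lay below 0 and 2708 above. Of the 19 measured M/G1 and daughter genes, which are expressed as daughter cells separate from their mothers, 18 lay below 0, and the median log2 change was -0.43, against -0.01 for all genes. Within replicates 1 to 3 it was -0.34, -0.60 and -0.39, and with 60 min replicate 2 left out the median was -0.24. With replicate 1, 2 or 3 left out of both times it was -0.48, -0.36 and -0.47. At that p, 10 of them were lower (52.6%, against 4.39% of all genes) and 1 was higher, the cell wall gene PIR3 (0.67). None was called without the block, and DSE3 was called with it. CTS1, the chitinase that separates daughter from mother, had 1022, 930 and 1206 CPM at 30 min and 822, 595 and 923 CPM at 60 min, a log2 fold change of -0.43 (adjusted p = 0.299, with the block 0.0491). AMN1, an antagonist of mitotic exit, stood at -0.50 (adjusted p = 0.0207, with the block 0.00231), and the cyclin gene PCL9 at -0.53 (adjusted p = 0.0114, with the block 0.00546), both under the fold of 1.5. The median was -0.55 from 40 to 75 min, -0.44 from 50 to 90 min and -0.18 in WT after rapamycin. Against the shared 0 min libraries it was 0.01 at 30 min and -0.52 at 60 min.

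Of the 34 proteasome genes, which encode the subunits of the main protein-degrading machine and its regulator Rpn4, 31 lay above 0. Their median log2 change was 0.20, and 0.14, 0.24 and 0.26 within replicates 1 to 3. At that p, 19 were higher (55.9%, against 4.37% of all genes) and 0 were lower. None passed the fold of 1.5. RPN2, a scaffold subunit of the regulatory particle, had 1271, 1160 and 1184 CPM at 30 min and 1508, 1455 and 1617 CPM at 60 min. These groups lay apart, with a log2 fold change of 0.34 (SE 0.06, adjusted p = 0.00492). RPN4, which activates the other genes, had 1571, 1796 and 1543 CPM at 30 min and 1772, 2120 and 1873 CPM at 60 min. Its log2 fold change was 0.23 (SE 0.10, adjusted p = 0.494). With the block the adjusted p of RPN4 was 0.305, and in the paired fit of the 6 libraries 0.00859. The median was 0.33 from 40 to 75 min, 0.44 from 50 to 90 min and 0.02 in WT. Against 0 min the proteasome median was -0.01 at 30 min and 0.22 at 60 min, 2 values that share the 0 min libraries.

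The proteasome element PACE (GGTGGCAAA), the site of Rpn4, was found on either strand in 27 of the 34 proteasome promoter windows (79.4%) and in 1.27% of all. It was also in the promoter of YBR284W, and the runs of RPN2 and YBR284W are shown with this element in capitals.
RPN2, minus strand, chrIX:220651-220950: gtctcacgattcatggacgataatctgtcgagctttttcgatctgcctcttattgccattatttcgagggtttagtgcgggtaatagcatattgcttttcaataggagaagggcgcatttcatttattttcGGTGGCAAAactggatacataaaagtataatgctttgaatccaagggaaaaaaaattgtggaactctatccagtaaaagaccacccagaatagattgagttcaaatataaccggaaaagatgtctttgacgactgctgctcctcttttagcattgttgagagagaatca
YBR284W, plus strand, chrII:770989-771288: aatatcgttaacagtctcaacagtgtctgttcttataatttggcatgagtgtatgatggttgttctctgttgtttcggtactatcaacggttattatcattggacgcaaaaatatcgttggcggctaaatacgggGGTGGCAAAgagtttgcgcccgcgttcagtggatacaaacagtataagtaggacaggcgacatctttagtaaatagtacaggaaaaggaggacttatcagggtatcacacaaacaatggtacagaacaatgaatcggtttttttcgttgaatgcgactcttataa

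**Figure D5:**
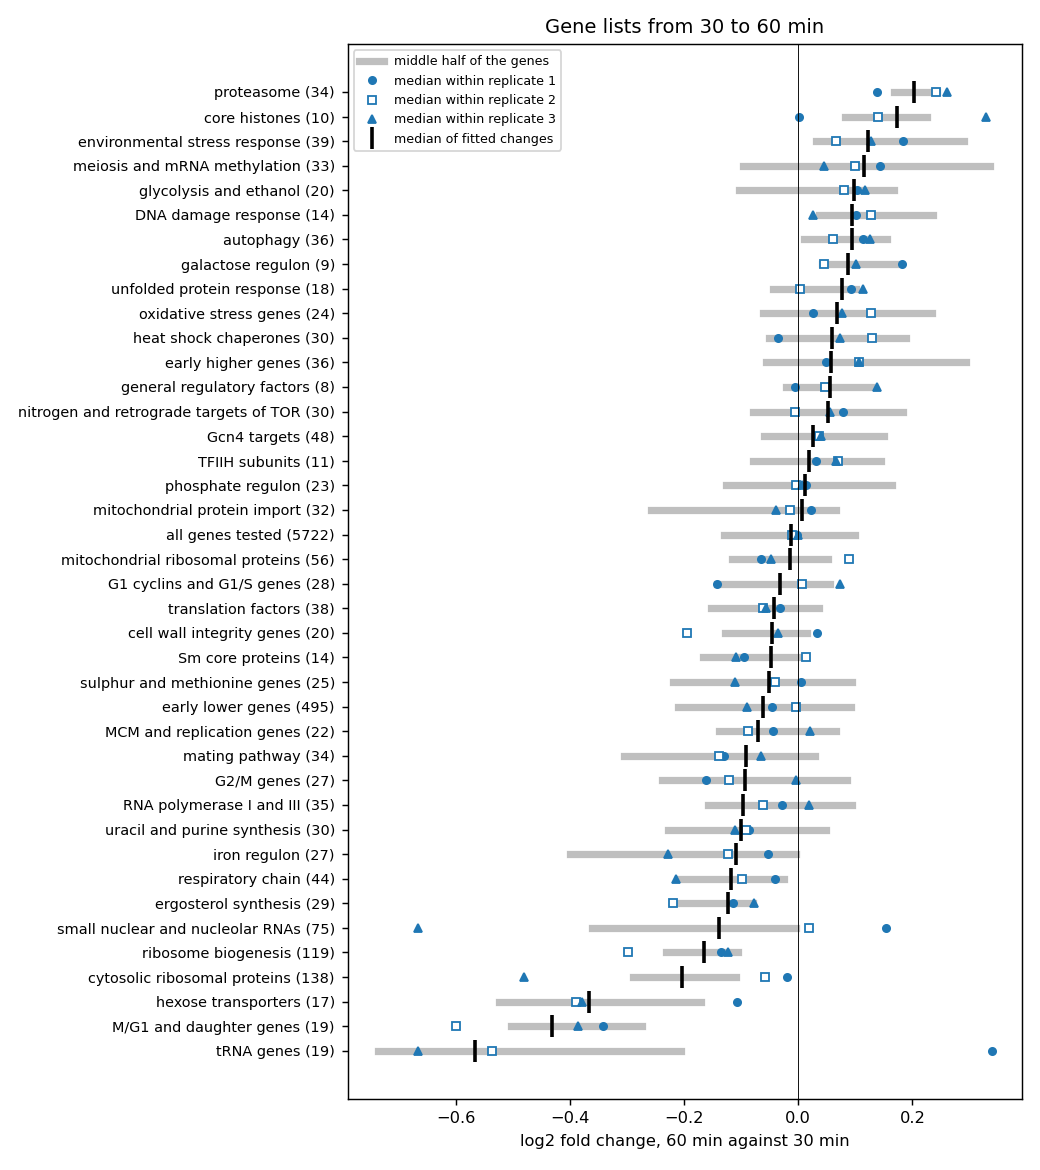
Median log2 change at 60 against 30 min (black bar) of gene lists, early sets and all genes, with the number tested in brackets, the middle 50% of the genes (grey) and the medians within replicates 1 to 3 (blue circle, open square, triangle). Proteasome genes lie at 0.20 and M/G1 and daughter genes at -0.43 with all pairs on 1 side of 0, whereas pairs of tRNA genes and of small nuclear and nucleolar RNAs disagree in sign.

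Genes of ribosome production lay mostly below 0, but their size differed between pairs. Of 119 ribosome biogenesis genes, 110 were below 0, with a median of -0.17 and medians of -0.14, -0.30 and -0.12 within pairs. With 60 min replicate 2 left out, their median was 0.01. With replicate 1, 2 or 3 left out of both times, which keeps the pairs whole, it was -0.18, -0.14 and -0.20. By an unadjusted p under 0.05, 7 were lower (5.88%, near the 4.39% of all genes), and BRX1, an assembly factor of the large subunit, had the lowest value at -0.79 (adjusted p = 0.2). Of 138 cytosolic ribosomal protein genes, 130 were below 0 with a median of -0.20. Within pairs it was -0.02, -0.06 and -0.48, so that replicate 3 gave the lowest value. The median of these genes was -0.042 with 60 min replicate 2 left out, -0.064 without 30 min replicate 3, -0.098 without 30 min replicate 1, -0.40 without 30 min replicate 2 and -0.42 without 60 min replicate 1. The 75 small nuclear and nucleolar RNAs had medians of 0.15, 0.02 and -0.67 within pairs, the 19 tRNA genes 0.34, -0.54 and -0.67. With replicate 3 left out of both times, the median was 0.14 for the small nuclear and nucleolar RNAs, against -0.14 with it, -0.31 for the tRNA genes, against -0.57, and -0.045 for the ribosomal protein genes. The tRNA median was -0.16 without replicate 2. The median of the ribosomal protein genes was -0.30 with replicate 1 left out of both times and -0.25 with replicate 2 left out.

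Nutrient and stress genes differed widely among replicates of 1 time. Of 17 hexose transporter and sensing genes, 15 were below 0 with a median of -0.37, but with 30 min replicate 2 left out it was 0.08. Leaving out 1 library breaks a pair. With replicate 1, 2 or 3 left out of both times the median was -0.38, -0.29 and -0.37. HXT2, a high-affinity glucose transporter, had 62.2, 320 and 166 CPM at 30 min and 34.3, 135 and 68.9 CPM at 60 min. The groups overlapped, although each replicate was lower at 60 min than at 30 min, and the log2 fold change was -1.21 (SE 0.59, adjusted p = 0.56). With the block HXT2 stood at -1.16 (adjusted p = 0.0722), and in the paired fit of the 6 libraries at -1.17 (adjusted p = 4.53e-06).

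Of 39 genes of the environmental stress response, 33 were above 0, with a median of 0.12 and medians of 0.18, 0.07 and 0.13 within pairs. With 60 min replicate 2 left out it was -0.02, and with replicate 1, 2 or 3 left out of both times it was 0.09, 0.14 and 0.10. HSP12, a small membrane-stabilising stress protein, had 136, 171 and 88.3 CPM at 30 min and 268, 342 and 152 CPM at 60 min. Its log2 fold change was 0.95 (SE 0.34, adjusted p = 0.325), with the block 0.93 (adjusted p = 0.0237) and in the paired fit of the 6 libraries 0.93 (adjusted p = 4.53e-06). In that paired fit 6 of the 39 genes were called higher and 1 lower, where 0.332% and 0.524% of all genes were. The catalase gene CTT1 was among them, with 232, 318 and 145 CPM at 30 min and 411, 479 and 236 CPM at 60 min. HXT2, HSP12 and CTT1 were named after their values were seen.

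Some of the other lists follow. Counts are of members with an unadjusted p under 0.05, to be read against 4.39% lower and 4.37% higher among all genes. The G2/M genes held CDC20 among 27, with a median of -0.09, 5 lower (18.5%) and 1 higher. Their median was 0.02 with 30 min replicate 1 left out. It was -0.05, -0.10 and -0.14 with replicate 1, 2 or 3 left out of both times. The Gcn4 targets, genes of amino acid synthesis, held SER3 among 48, with a median of 0.03, 1 lower and 4 higher (8.33%). The nitrogen and retrograde targets of TOR, genes that rapamycin induces in ordinary strains, held DUR3 among 30, with a median of 0.05 and 1 higher (3.33%), below the share of all genes. The 44 respiratory chain genes had a median of -0.12 with 7 lower (15.9%). The 27 iron regulon genes had a median of -0.11 with 6 lower (22.2%) and 1 higher. Their median lay between -0.33 without 60 min replicate 2 and -0.018 without 30 min replicate 2. It was -0.16, -0.15 and -0.09 with replicate 1, 2 or 3 left out of both times. Heat shock chaperones had a median of 0.06 with 5 of 30 higher (16.7%), TFIIH subunits 0.02 with 2 of 11 higher (18.2%), and Sm core proteins -0.05 with 2 of 14 lower (14.3%). The phosphate regulon had a median of 0.01 with 1 of 23 lower and 2 higher (8.70%), and the mitochondrial import machinery 0.01 with 2 of 32 lower (6.25%). Ergosterol synthesis genes had a median of -0.12 with 4 of 29 lower (13.8%), and glycolysis and ethanol genes 0.10 with 2 of 20 lower (10%). DNA damage response genes had a median of 0.09 with 2 of 14 higher (14.3%), and oxidative stress genes 0.07 with 3 of 24 higher (12.5%).

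The Abf1 motif was counted in the promoters of both the early and the later genes. It was in 358 of 487 promoter windows of the early lower genes (73.5%) and in 12.6% of all 5603 windows. Among the genes called lower from 30 to 60 min it was in 1 of 5, and with the block in 2 of 13 (15.4%, exact 95% interval 1.92 to 45.4%), namely TOM70 and NPC2. Among those called higher it was in 1 of 4, in YBR284W, and with the block in 1 of 5. Of the gene lists searched, the proteasome genes had the Abf1 motif in 14 of 34 windows (41.2%, exact 95% interval 24.6 to 59.3%). The ribosome biogenesis genes had it in 45 of 119 (37.8%) and the M/G1 and daughter genes in 1 of 19 (5.26%). It was in 0 of 39 windows of the environmental stress response and 0 of 17 of the hexose transporters. The stress element AGGGG was in 2 of the 13 promoters of genes lower with the block and in 24 of 39 of the environmental stress response (61.5%), against 21.7% of all. The Ino2 and Ino4 core CATGTG, searched after the called genes were seen, was in 1 of the 13, that of ITR1, and in 6.76% of all. Of the other motifs reported, also read on both strands, the heat shock element TTCNNGAA was in 2 of the 13 (12.7% of all windows) and the Gcn4 site TGACTCA in 1 (2.73% of all). The PAC element GATGAGATG (2.27% of all), the MCB ACGCGT (3.18%) and the Pho4 site CACGTG (2.98%) were in 0 of the 13. The Abf1 match of YBR284W lies after the gene's start and was not in the 250 bases before it. In the 5 promoters of genes higher with the block, the only other match to these motifs was PACE in YBR284W. A match is a string in this window and not a bound site.

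The genes were also followed in libraries that the comparison did not use, at 40, 50, 75 and 90 min, whose intervals overlap it in time. All 9 genes called without the block had the same sign from 40 to 75 min and from 50 to 90 min. From 40 to 75 min 10 genes were called lower (0.175%) and 8 higher (0.14%), with the block 24 (0.419%) and 25 (0.437%). From 50 to 90 min 20 were called lower (0.35%) and 37 higher (0.647%), with the block 52 (0.909%) and 98 (1.71%). INA1, FAA4 and ITR1 were called lower in both, with log2 fold changes from 50 to 90 min of -1.46, -0.75 and -1.09. DUR3, NCA3 and SER3 were called higher in both. TOM70 stood at -0.06 from 50 to 90 min (SE 0.10, adjusted p = 0.81), and AIM20 stood at 0.04 and NCB2 at -0.06. MGM1 rose further, by 0.93 from 40 to 75 min and 1.23 from 50 to 90 min on the log2 scale.

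In WT, 90 min of rapamycin called 0 genes lower (0%) and 0 higher (0%) with edgeR, and 0 with DESeq2, beside 280 with a lower and 224 with a higher value by an unadjusted p under 0.05. Among the 9 genes the WT log2 change lay between -0.15 (TOM70) and 0.31 (SER3, SE 0.13, adjusted p = 0.537). WT at 30 and 60 min was not analysed here, so time in rapamycin and loss of Abf1 cannot be told apart within this interval.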

How the data were processed

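Labelled RNA was measured in 39 libraries. According to the study's methods, the authors aligned the reads to sacCer3 with HISAT2 2.0.5, removed duplicates by molecular identifier, counted reads per gene with featureCounts (Subread 1.6.5), and added up separate runs. The deposited values are these raw counts for 6420 features, of which 6142 were matched to the R64 annotation. The authors counted on published transcription start sites merged with the annotation of the Saccharomyces genome database. The R64 coordinates printed here can therefore differ from those of the counted features. The strand setting of the counting is not given in the sources used here. A second deposited table holds the authors' own DESeq2 fold changes and adjusted p-values against 0 min, and was not used. Totals ranged from 3500982 to 11266408 counts, and floors cover counting error only.

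All 39 libraries were fitted with 1 coefficient per group in edgeR 4.0.16 (R 4.3.3; TMM scaling, robust quasi-likelihood F-test), on 5722 features that passed filterByExpr with a minimum count of 10. P-values were adjusted by Benjamini-Hochberg over all of them. Genes were called at an adjusted p under 0.01 and a fold over 1.5. Fold changes in pairs used a prior count of 2. Replicates are described as biological triplicates. Same-numbered libraries deviated from their group means together (r = 0.77, 0.81 and 0.43 across genes, other pairs -0.71 to 0.03). The numbers were taken to pair the samples in the replicate block and the paired fit, a decision that came from these correlations. The main fit and the fits with libraries left out had no replicate term. Named genes were ABF1 and 6 genes followed in the study or in an earlier analysis of these data. Also named were the 10 lowest and 10 highest called genes with a mean count of at least 50 and no overlap, and up to 4 called genes of each list. Other names were chosen after their values were seen. The members and lists were chosen with earlier results of these data known. Alternatives were another scaling, no filter, DESeq2 1.42.0, fewer libraries, the replicate block, other thresholds, gene length offsets and leaving out libraries. The fits were tested on simulated data. One motif search is not reported here.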

Additional observations from a re-analysis of the deposited data

How the results depend on the processing

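The 5 genes lower and 4 higher at 60 than at 30 min became 13 lower with DESeq2, 12 lower at an adjusted p under 0.05, and 2 higher with total counts only or with the 33 tagged libraries. In the 6 libraries alone without pairing 0 were called lower and 0 higher (137 with a lower and 163 with a higher value by an unadjusted p under 0.05). With the replicate block 13 were lower, and 30 lower and 19 higher in the paired fit of the 6 libraries. From 40 to 75 min the 10 lower and 8 higher genes became 24 and 25 with the replicate block, 18 and 18 with DESeq2, and 19 and 21 at an adjusted p under 0.05. From 50 to 90 min the 20 lower and 37 higher became 52 and 98 with the replicate block, 34 and 96 with DESeq2, and 45 and 135 at an adjusted p under 0.05, and 23 higher with the tagged libraries. The replicate block was not applied to the calls at 20 against 0 min, and its counts for the later intervals are given beside the results. Leaving out 1 library gave 2 to 7 lower and 0 to 4 higher genes, and leaving out 1 replicate number in both groups, an alternative chosen after seeing the data, gave 1 to 3 lower and 0 to 2 higher. SRB2, which was not called, had a log2 fold change between -0.041 and 0.56 when a replicate was left out. Among the named genes, 381 values kept their side of the threshold, 61 lost and 32 gained it, and 1 changed sign. Of the list medians 634 moved by less than the spread of the pairs and 126 by more. The cause of these moves was not tested. With 3 replicates and low counts, such as those of TFB1 and NPC2, small changes were not detectable at this depth.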
